A study of Mus musculus and Rattus norvegicus with 79 samples.

Results

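The kinases and phosphatases that set the activity of the pyruvate dehydrogenase complex were followed in mouse liver RNA across feeding, time of day and loss of GR, the glucocorticoid receptor encoded by Nr3c1, from hepatocytes. They are the kinases Pdk1, Pdk2, Pdk3 and Pdk4, the phosphatase catalytic subunits Pdp1 and Pdp2, and their shared substrate Pdha1, the E1 alpha subunit of the complex. These 7 genes were chosen by name among 24790 genes found in both mouse count tables. A gene was represented by its RefSeq transcript row with the highest summed count over both tables, since rows of one gene count the same reads, and the 7 genes have 13 rows in all.

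The pyruvate dehydrogenase complex sits in the mitochondrial matrix and turns pyruvate into acetyl-CoA, the step that commits carbohydrate carbon to oxidation or fat synthesis. The kinases phosphorylate Pdha1 and switch the complex off, and the phosphatases remove the phosphate and switch it on. In liver, kinase activity is known to be high in the fasted state, which spares pyruvate for gluconeogenesis, and Pdk4 is the family member best known as a transcriptional target of fasting, fatty acids through PPAR alpha, FOXO1 and glucocorticoids, and as a target that insulin represses.

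Livers of C57BL/6 mice that received no virus gave 27 polyA libraries. The mice lived under 12 h of light and 12 h of dark and were used to eating at night. Fed and unfed mice were sampled at ZT13, ZT14, ZT18 and ZT22, and unfed mice also at ZT10, where ZT is the number of hours since lights on, with 3 libraries in each of these 9 groups. A separate set of 36 libraries, depleted of ribosomal RNA, came from Nr3c1fl/fl mice, whose Nr3c1 alleles are floxed in both arms. These mice had received AAV-tbg-CRE or AAV-tbg-GFP 10 days before sacrifice and gave 3 libraries in each of 12 groups. Both arms were sampled without food at ZT10 and ZT12, and after food at the 4 times of the first set. The tbg promoter is active in hepatocytes, so the other cells of the liver keep the receptor, and both viruses were given to floxed mice. Nothing in the labels says that the libraries of a group came from separate animals, so the p-values measure the spread between these samples.

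Summed over all transcript rows, libraries held 23.9 to 91.8 M (mega) counts in C57BL/6 livers and 34.6 to 78.8 M in Nr3c1fl/fl livers. Rows of a gene count the same reads, so these sums count some reads repeatedly. Levels are given as CPM, the count per M counts of the TMM-scaled library, with 1 row per gene tested. Because transcript lengths were not used and the RNA selection differed, levels are compared neither between genes nor between the 2 sets of mice. All 7 genes passed the filter on low counts in both sets, in which 14744 and 15712 genes were tested. Nr3c1 itself averaged 114 to 167 CPM in the 6 groups of CRE livers and 164 to 261 CPM in the 6 groups of GFP livers. No CRE library reached the level of a GFP library of the same time, and averaged over the 6 times Nr3c1 was lower by 0.63 ± 0.06 on the log2 scale (SE, edgeR adjusted p = 1.85e-09). The hepatocyte markers found in the tables, 8 of 9, were detected in all libraries. Their summed median level per group was 47970 to 61940 CPM in CRE livers, against 59170 to 68390 CPM in GFP livers, and the part of this in the results for CRE livers was not tested. In bulk RNA, fewer cells of a type and less RNA per cell cannot be told apart.

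A pair of C57BL/6 libraries stood apart by markers of other tissues. Fed ZT14 replicate 1 had a summed bile duct marker level of 104 CPM, while the other 26 libraries had 18.6 to 37.9 CPM. Unfed ZT18 replicate 3 had a summed pancreas marker level of 295 CPM, against at most 26.9 CPM in the others. Values without both libraries are given where a call of edgeR was lost without them, and for Pdk4.

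How feeding and the time of day went with the expression of these genes was asked first, in C57BL/6 livers. Averaged over the 4 times with fed and unfed mice, Pdp2 and Pdk2 were lower and Pdk1 was higher in fed livers, each by under 1.5-fold. For Pdk1 that average covers fed levels below the unfed ones at ZT13 and above them at ZT18 and ZT22. Pdk4 changed over the sampling times in fed and in unfed livers alike, over a wider span of group means than Pdk1, Pdk2, Pdp2 or Pdha1. Its lowest levels were at ZT13 in fed and at ZT10 in unfed livers, and its highest at ZT22. In unfed livers the hour and the hours without food change together, as do the hour and the hours since food in fed livers. A time effect given below is therefore a change over the sampling times, in which these cannot be told apart. Pdha1, the substrate, stayed within 127 to 186 CPM in all 27 libraries.

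Pdk4, row NM_013743, lies at chr6:5483351-5496278 of GRCm38.p6, the assembly whose coordinates are those of mm10. The 250 bases upstream of its start (chr6:5496279-5496528, minus strand, RefSeq) are shown here beside those of Pdk2 (chr11:95041372-95041621, minus strand), Pdp2 (chr8:104591222-104591471, plus strand) and Pdk1 (chr2:71872974-71873223, plus strand), because these are the 4 genes with a called change in at least 1 comparison of feeding or virus. Capitals mark the letters CACGTG, the core of E-boxes, and CCAAT, written ATTGG where it lies on the other strand.
Pdk4: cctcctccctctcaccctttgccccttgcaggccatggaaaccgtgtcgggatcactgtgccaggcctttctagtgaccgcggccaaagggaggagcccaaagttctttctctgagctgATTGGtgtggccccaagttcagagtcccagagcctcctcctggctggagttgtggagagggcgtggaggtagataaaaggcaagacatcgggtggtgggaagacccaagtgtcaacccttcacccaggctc
Pdk2: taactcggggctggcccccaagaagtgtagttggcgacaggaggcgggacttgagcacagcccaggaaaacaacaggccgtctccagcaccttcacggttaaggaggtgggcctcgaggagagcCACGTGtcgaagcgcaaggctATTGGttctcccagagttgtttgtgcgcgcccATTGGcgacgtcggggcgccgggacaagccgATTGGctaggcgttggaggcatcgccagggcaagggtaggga
Pdp2: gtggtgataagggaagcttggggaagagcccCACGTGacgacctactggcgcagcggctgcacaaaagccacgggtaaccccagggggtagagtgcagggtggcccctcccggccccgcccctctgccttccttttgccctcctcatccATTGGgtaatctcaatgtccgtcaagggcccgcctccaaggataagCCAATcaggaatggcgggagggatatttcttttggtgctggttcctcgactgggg
Pdk1: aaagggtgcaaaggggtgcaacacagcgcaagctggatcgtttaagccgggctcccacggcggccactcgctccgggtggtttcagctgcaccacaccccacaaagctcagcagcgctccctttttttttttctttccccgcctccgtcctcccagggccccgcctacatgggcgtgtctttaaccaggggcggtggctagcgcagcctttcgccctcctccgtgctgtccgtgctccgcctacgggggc
The windows of Pdk2 and Pdp2 both hold CACGTG, once each, and CCAAT, 3 times and 2 times. That of Pdk4 holds CCAAT once, and the printed window of Pdk1 holds neither. The letters were chosen after the windows had been read. Over full windows of 300 bases, of which 250 are printed here, 7.15% of 32851 promoters hold CACGTG and 37.4% hold CCAAT. A match therefore describes the sequence and is no sign of a bound site.

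In fed livers Pdk4 had 1.36, 1.61 and 1.31 CPM at ZT13, 1.38, 4.89 and 3.48 CPM at ZT14, 10.7, 18.2 and 10.2 CPM at ZT18 and 30.0, 21.6 and 41.2 CPM at ZT22. In unfed livers it had 1.79, 2.32 and 2.20 CPM at ZT10, 3.85, 3.34 and 3.11 CPM at ZT13, 7.42, 8.79 and 4.73 CPM at ZT14, 6.53, 9.38 and 21.7 CPM at ZT18 and 16.8, 27.4 and 14.6 CPM at ZT22. At ZT13 the 3 fed libraries were all below the 3 unfed ones, while at ZT14, ZT18 and ZT22 the groups overlapped, by single libraries at ZT14. The order of the 9 group means ran from fed ZT22 through unfed ZT22, fed ZT18, unfed ZT18, unfed ZT14, unfed ZT13, fed ZT14 and unfed ZT10 to fed ZT13. Neighbours in that order overlapped except unfed ZT14 over unfed ZT13, and unfed ZT10 over fed ZT13.

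Pdk4 changed over the sampling times in both states. Among fed livers Pdk4 was 21.6-fold higher at ZT22 (30.9 ± 9.85 CPM, SD, n = 3) than at ZT13 (1.43 ± 0.164 CPM), and among unfed livers 9.33-fold higher at ZT22 (19.6 ± 6.85 CPM) than at ZT10 (2.10 ± 0.279 CPM). The change over time passed the test in both states, with an adjusted p of 7.85e-09 in fed and 1.13e-06 in unfed livers (edgeR quasi-likelihood F-test). The fed to unfed log2 difference was -1.26 ± 0.43 (ZT13), -1.05 ± 0.40 (ZT14), 0.04 ± 0.35 (ZT18) and 0.65 ± 0.34 (ZT22), with ± the SE, and none of these passed (edgeR adjusted p = 0.178, 0.129, 0.948 and 0.19). Without the pair of libraries that stood apart it was -1.25 (ZT13), -0.73 (ZT14), 0.71 (ZT18) and 0.66 (ZT22). None of these passed either (edgeR adjusted p = 0.0546, 0.276, 0.0986 and 0.0698). The test that the difference is the same at all 4 times gave an adjusted p of 0.0496, where 8.10% of genes passed. That call was lost in 17 of the 24 fits that left out 1 library (adjusted p 0.0073 to 0.108), and without both libraries that stood apart it was 0.00644.

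**Figure D1:**
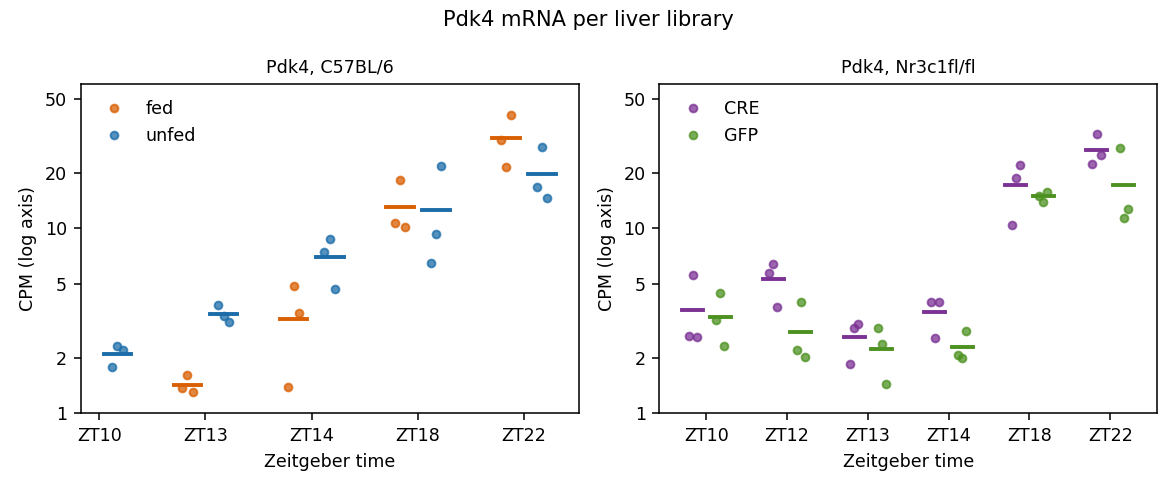
Pdk4 level (CPM, log axis) by time of day (ZT, h). Dots are libraries and bars group means, with fed left of unfed C57BL/6 livers and CRE left of GFP Nr3c1fl/fl livers. Fed C57BL/6 livers held 1.31 to 1.61 CPM at ZT13 and 21.6 to 41.2 CPM at ZT22.

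Averaged over the 4 times, Pdk4 had a fed to unfed log2 difference of -0.40 ± 0.19, which missed the threshold (edgeR adjusted p = 0.103) and was -0.15 (0.474) without the pair of libraries that stood apart. The sign at ZT18 rested on single libraries: with 1 library left out at a time the log2 difference ran from -0.27 to 0.71. Unfed ZT18 replicate 3, the library with pancreas markers, held 21.7 CPM of Pdk4 against 6.53 and 9.38 CPM in the other 2, and the part of those markers in its level was not tested. The 5 markers of muscle, a tissue rich in Pdk4, summed to 4.40 to 5.21 CPM in fed and 3.05 to 4.19 CPM in unfed livers at ZT18, and to 4.28 to 7.10 CPM in fed and 2.37 to 4.13 CPM in unfed livers at ZT22, without overlap, and their part in the levels of Pdk4 was not tested.

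Pdk2, row NM_133667 at chr11:95026258-95041371, encodes a kinase that is expressed widely and is the other main form of liver. It had 71.9, 88.5 and 94.4 CPM in fed livers at ZT18, against 104, 112 and 129 CPM in unfed livers. At ZT13, ZT14 and ZT18 all 3 fed libraries were below all 3 unfed ones. At ZT22 the fed libraries, with 99.4, 106 and 67.8 CPM, overlapped the unfed ones, with 95.4, 97.5 and 107 CPM.

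Averaged over the 4 times Pdk2 was lower in fed livers, with a log2 difference of -0.30 ± 0.07 (edgeR adjusted p = 0.000664). Alone, the ZT18 difference of -0.44 ± 0.13 passed (adjusted p = 0.0135), but not without unfed ZT18 replicate 3 (-0.34, 0.103), without fed ZT18 replicate 1 (-0.32, 0.121) or without the pair of libraries that stood apart (-0.34, 0.1). Without food Pdk2 also moved over the sampling times, with 100 ± 6.41 CPM at ZT22 and 142 ± 6.76 CPM at ZT10 (SD, n = 3; time among unfed livers, edgeR adjusted p = 0.0257). That call was lost without unfed ZT10 replicate 2 (0.0687), unfed ZT22 replicate 1 (0.079) or unfed ZT22 replicate 2 (0.0673). Among fed livers the time effect did not pass, and the fed to unfed difference was not shown to vary among the times (edgeR adjusted p = 0.607).

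Pdk1, row NM_172665 at chr2:71873215-71903858, encodes a kinase known as a target of hypoxia signalling and of MYC in tumour cells. In livers with food it had 105, 103 and 98.0 CPM at ZT13, 110, 121 and 139 CPM at ZT14, 123, 107 and 120 CPM at ZT18 and 106, 115 and 114 CPM at ZT22. In livers without food it had 138, 196 and 140 CPM at ZT10, 129, 119 and 140 CPM at ZT13, 125, 122 and 119 CPM at ZT14, 77.0, 87.5 and 92.2 CPM at ZT18 and 64.9, 66.4 and 81.9 CPM at ZT22. The fed groups stayed within 98.0 to 139 CPM, while the unfed libraries of ZT18 and ZT22 were all below those of ZT10 to ZT14.

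Among fed livers the highest and lowest group means of Pdk1 lay 1.21-fold apart and the time effect did not pass. Among unfed livers it passed (edgeR adjusted p = 1e-07), with 71.1 ± 9.41 CPM at ZT22 and 158 ± 32.5 CPM at ZT10 (SD, n = 3), a 2.22-fold span. The fed to unfed log2 difference at ZT13 was -0.34 ± 0.12 (edgeR adjusted p = 0.168), that at ZT14 was 0.01 ± 0.12 (0.963), that at ZT18 was 0.45 ± 0.12 (0.00538) and that at ZT22 was 0.66 ± 0.12 (0.000211). Fed and unfed libraries did not overlap at ZT13, ZT18 or ZT22, with the fed ones lower at ZT13 and higher at the later 2 times. The food response of Pdk1 varied among the 4 times (edgeR adjusted p = 0.000859, and 0.000568 to 0.00454 with 1 library left out). Its mean over the 4 times, a log2 difference of 0.19 ± 0.06, also passed (edgeR adjusted p = 0.0103).

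Pdk3, row NM_145630 at chrX:93764616-93832150, encodes a kinase best known from testis, brain and kidney. It was close to the limit of detection, with 0 to 14 counts per C57BL/6 library (0 to 0.852 CPM) and 6 to 62 counts per Nr3c1fl/fl library (0.359 to 2.90 CPM). Every pair of neighbours in the order of its 9 C57BL/6 group means overlapped. Its mean fed to unfed log2 difference was -0.21 ± 0.50 (edgeR adjusted p = 0.785), and no difference of that size was detectable at this depth.

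Pdp2, row NM_001024606 at chr8:104591472-104599026, encodes the phosphatase that is abundant in liver and known from rat heart and kidney to decline in starvation. In fed livers it had 36.3, 41.5 and 37.1 CPM at ZT13, 33.5, 35.0 and 32.1 CPM at ZT14, 24.2, 24.7 and 30.6 CPM at ZT18 and 34.3, 32.6 and 30.2 CPM at ZT22. In unfed livers it had 40.1, 33.6 and 40.3 CPM at ZT10, 45.0, 47.1 and 48.0 CPM at ZT13, 57.4, 46.3 and 49.9 CPM at ZT14, 45.4, 35.3 and 43.7 CPM at ZT18 and 40.2, 42.4 and 33.9 CPM at ZT22. At ZT13, ZT14 and ZT18 every fed library lay below every unfed library, and at ZT22 the groups overlapped by 1 library each.

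Among the 7 genes Pdp2 had the smallest adjusted p for food. Averaged over the 4 times it was lower in fed livers by 0.45 ± 0.06 on the log2 scale, to 0.732 of the unfed level (edgeR adjusted p = 6.56e-07, and 2.31e-07 to 2.91e-06 with 1 library left out). At single times it fell by 0.61 ± 0.11 at ZT14 (edgeR adjusted p = 0.00151) and by 0.65 ± 0.11 at ZT18 (0.000127). The differences of -0.28 ± 0.11 at ZT13 (edgeR adjusted p = 0.238) and -0.26 ± 0.11 at ZT22 (0.102) did not pass, although ZT22 did without unfed ZT22 replicate 3 (0.0497). Time passed in both states, with 26.5 ± 3.52 CPM at ZT18 and 38.3 ± 2.77 CPM at ZT13 in fed livers (edgeR adjusted p = 0.00455) and 51.2 ± 5.64 CPM at ZT14 and 38.0 ± 3.81 CPM at ZT10 in unfed livers (0.00935).

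**Figure D2:**
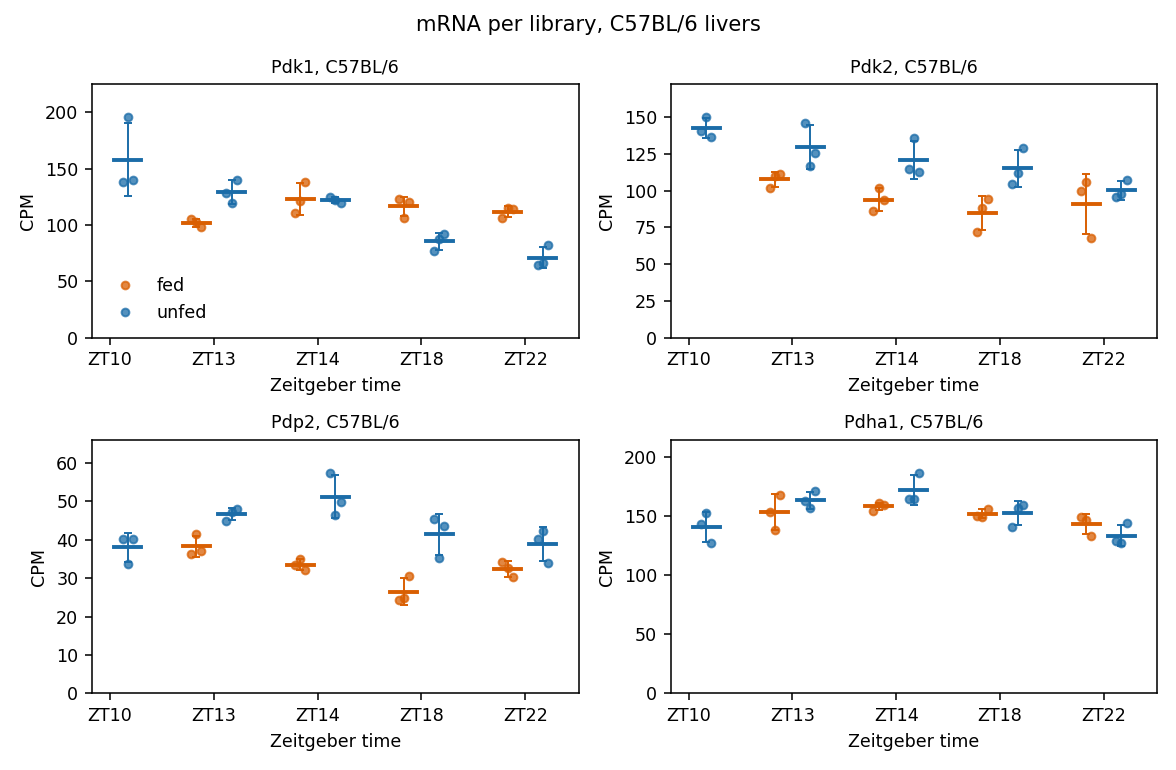
Levels of Pdk1, Pdk2, Pdp2 and Pdha1 (CPM) in C57BL/6 livers by time of day (ZT, h), with fed left of unfed. Dots are libraries and lines with bars are group means ± SD (n = 3). Pdp2 lay lower in fed livers at ZT13 to ZT18, and Pdk1 lay higher in fed livers at ZT18 and ZT22.

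Pdp1, row NM_001033453 at chr4:11958183-11966450, encodes the phosphatase that calcium activates, best known from muscle and heart. It was low, with 2 to 60 counts per C57BL/6 library. In unfed livers it had 1.73, 2.14 and 2.06 CPM at ZT22, against 0.544, 0.827 and 0.0929 CPM at ZT13, a 4.06-fold span of the means, and its time effect passed among unfed livers (edgeR adjusted p = 0.00166). At ZT22 the fed libraries, with 0.961, 1.06 and 1.48 CPM, were all below the unfed ones, but its mean fed to unfed log2 difference of -0.28 ± 0.20 did not pass (edgeR adjusted p = 0.287).

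Pdha1, row NM_008810 at chrX:160122219-160138430, is the phosphorylated subunit itself. Its group means were 143 to 158 CPM in fed livers and 134 to 172 CPM in unfed livers. Time passed among unfed livers, with 134 ± 9.10 CPM at ZT22 and 172 ± 12.7 CPM at ZT14 (SD, n = 3; edgeR adjusted p = 0.00619), a 1.28-fold span. The mean fed to unfed log2 difference was -0.03 ± 0.04 (edgeR adjusted p = 0.65).

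Set against all genes, the counts for food were as follows. At ZT13 edgeR called 0 of the 7 genes, where 1.10% of genes passed. At an unadjusted p under 0.05 it listed 4 (Pdk1, Pdk2, Pdk4 and Pdp2, all lower in fed livers), where 1903 of 14744 genes reached it, and DESeq2 called 0. At ZT14 it called 1 of 7, where 5.64% of genes passed, at ZT18 3 of 7 (26.4%), and at ZT22 1 of 7 (20.2%). For the mean of the 4 times it called 3 of 7 (35.4%), and the median log2 difference was -0.28 over the 7 genes and 0.01 over all genes tested. Time passed for 2 of 7 genes among fed livers, where 37.2% of genes passed, and for 6 of 7 among unfed livers (42.5%). The fed to unfed difference varied among the times for 2 of 7, Pdk1 and Pdk4, where 8.10% of genes passed, and for 1 of 7 in the 17 of 24 fits with 1 library left out in which Pdk4 was lost.

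The summed levels of markers of other cells also differed between fed and unfed livers. The 7 endothelial markers overlapped at ZT13, with 268 to 296 CPM in fed and 265 to 333 CPM in unfed livers. They summed to 244 to 256 CPM in fed and 276 to 293 CPM in unfed livers at ZT14, to 204 to 222 CPM in fed and 292 to 315 CPM in unfed livers at ZT18, and to 249 to 261 CPM in fed and 335 to 352 CPM in unfed livers at ZT22. At ZT22 the 5 pancreas markers summed to 21.9 to 26.9 CPM in fed and 7.67 to 8.17 CPM in unfed livers, and the 4 fat markers to 9.13 to 14.1 CPM in fed and 14.4 to 21.0 CPM in unfed livers. The part of these shifts in the results for Pdk1, Pdk2, Pdk4 and Pdp2 was not tested.

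What the loss of the receptor from hepatocytes changed was asked in the Nr3c1fl/fl livers. Averaged over the 6 times, Pdk4 was higher in CRE livers, the livers with less Nr3c1, and it was the only one of the 7 genes that passed, where 14.6% of all genes did. With 1 library left out at a time, 0 to 3 of the 7 passed for that mean. At single times none of the 7 passed, where 0.102% to 5.04% of all genes did. Pdk4 changed over the sampling times in both arms, with low levels up to ZT14 and high levels at ZT18 and ZT22. In each arm the times without food came before those after food, so the hour and feeding change together. Time effects in these livers, and the step from ZT12 to ZT13, cannot tell the hour from feeding.

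Pdk4 had 2.63, 5.60 and 2.58 CPM in CRE livers at ZT10, against 3.20, 4.45 and 2.30 CPM in GFP livers. At ZT12 it had 5.77, 6.40 and 3.78 CPM in CRE livers, against 2.20, 3.98 and 2.02 CPM in GFP livers. At ZT13, the first fed time, it had 1.84, 2.88 and 3.03 CPM in CRE livers, against 2.90, 2.37 and 1.44 CPM in GFP livers. These 3 times had overlapping groups, at ZT12 by 1 library each. At ZT12 the row NR_046233, which matched no gene, took 22.9%, 24.5% and 4.52% of the counts in GFP livers. In CRE livers it took 7.38%, 3.62% and 4.21%. With the share of this row as a covariate in the fit, the ZT12 difference of Pdk4 kept its sign and still missed the threshold. How much of that difference goes with the share was not tested.

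At ZT14 Pdk4 had 3.98, 2.56 and 3.98 CPM in CRE livers, against 2.08, 2.00 and 2.79 CPM in GFP livers. At ZT18 it had 10.4, 18.7 and 22.2 CPM in CRE livers, against 14.9, 13.96 and 15.8 CPM in GFP livers. At ZT22 it had 22.2, 32.4 and 24.8 CPM in CRE livers, against 27.2, 11.3 and 12.8 CPM in GFP livers. The groups overlapped at each of these times, and at ZT22 a single GFP library, replicate 1, reached the CRE range.

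In order of time, the CRE to GFP log2 difference of Pdk4 was 0.20 ± 0.39 (ZT10), 1.04 ± 0.37 (ZT12), 0.21 ± 0.36 (ZT13), 0.62 ± 0.36 (ZT14), 0.20 ± 0.32 (ZT18) and 0.63 ± 0.32 (ZT22), positive at 6 of 6 times. The sign turned at ZT10 without CRE ZT10 replicate 2 (-0.35), at ZT13 without GFP ZT13 replicate 3 (-0.04) and at ZT18 without CRE ZT18 replicate 3 (-0.028). The mean of the 6 was 0.48 ± 0.14, or 1.4-fold, with an edgeR adjusted p of 0.0208. That call was lost without CRE ZT10 replicate 2 (0.39, edgeR adjusted p = 0.0697). The unmatched row NR_046233 took over 20% of the counts in GFP ZT10 replicates 1, 2 and 3, GFP ZT12 replicates 1 and 2 and CRE ZT10 replicate 1. Without these libraries the mean over the 5 times other than ZT10 was 0.61. There the ZT12 difference was 1.39 and rested on 1 GFP library, replicate 3. The difference was not shown to vary among the 6 times (edgeR adjusted p = 0.825). The 4 red blood cell markers summed to 98.4 to 113 CPM in CRE and 74.9 to 84.9 CPM in GFP livers at ZT12, to 92.7 to 123 CPM in CRE and 60.4 to 91.9 CPM in GFP livers at ZT18, and to 111 to 124 CPM in CRE and 66.3 to 89.3 CPM in GFP livers at ZT22. The 4 fat markers were lower in CRE livers at ZT10, ZT12 and ZT13, for instance 11.7 to 18.2 CPM in CRE and 20.7 to 26.1 CPM in GFP livers at ZT13, and the part of either in the result for Pdk4 was not tested.

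The rise of Pdk4 from ZT13 to ZT22, both after food, was present in both arms, while the test over time also took in the times without food. CRE livers had 26.5 ± 5.30 CPM at ZT22 and 2.58 ± 0.646 CPM at ZT13, a 10.3-fold span (edgeR adjusted p over time = 1.38e-09). GFP livers had 17.1 ± 8.77 CPM at ZT22 and 2.24 ± 0.736 CPM at ZT13, a 7.63-fold span (1.54e-09). Between ZT12, unfed, and ZT13, after food, Pdk4 had a log2 difference of -1.03 ± 0.35 in CRE livers (edgeR adjusted p = 0.0566) and of -0.21 ± 0.38 in GFP livers (0.849). The 2 differed by -0.83 ± 0.52, which did not pass (0.999).

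Pdk2 had 53.3, 52.4 and 55.8 CPM in CRE livers at ZT18, against 69.7, 89.1 and 70.3 CPM in GFP livers. The groups did not overlap, but the log2 difference of -0.50 ± 0.14 did not pass over all genes (edgeR adjusted p = 0.194), nor did its mean over the 6 times, -0.13 ± 0.06 (0.132). Over time Pdk2 changed in both arms, with 53.8 ± 1.79 CPM at ZT18 and 103 ± 3.20 CPM at ZT12 in CRE livers (edgeR adjusted p = 9.18e-05) and 63.1 ± 13.2 CPM at ZT22 and 102 ± 10.6 CPM at ZT12 in GFP livers (0.00227). Pdk2 was highest at ZT12 in both arms.

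Pdk1 had 104, 114 and 102 CPM in CRE livers at ZT12, against 89.5, 84.0 and 90.7 CPM in GFP livers, and 81.6, 77.6 and 82.7 CPM in CRE livers at ZT14, against 64.0, 71.4 and 67.7 CPM in GFP livers. These times had no overlap and the other 4 did. Its mean log2 difference of 0.15 ± 0.07 missed the threshold (edgeR adjusted p = 0.175). Time passed in CRE livers (edgeR adjusted p = 0.0424, lost in 15 of 18 fits with 1 library left out, 0.0256 to 0.119) and in GFP livers (0.0246). The call in GFP livers was lost in a fit of those livers alone (0.102) and without GFP ZT10 replicate 1 (0.123), GFP ZT22 replicate 2 (0.0518) or GFP ZT22 replicate 3 (0.0505). Pdk3 had a mean log2 difference of -0.09 ± 0.20 (edgeR adjusted p = 0.824).

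Pdp2 had 25.1, 26.2 and 25.6 CPM in CRE livers at ZT18, against 21.4, 22.2 and 22.4 CPM in GFP livers. At ZT12 it had 34.6, 34.8 and 36.7 CPM in CRE livers, against 26.3, 34.3 and 31.6 CPM in GFP livers. Neither pair of groups overlapped, and its mean log2 difference over the 6 times was 0.15 ± 0.07 (edgeR adjusted p = 0.138). Time passed in GFP livers, with 22 ± 0.505 CPM at ZT18 and 32.1 ± 6.40 CPM at ZT13 (SD, n = 3; edgeR adjusted p = 0.0201), but not in a fit of the GFP livers alone (0.0542). In CRE livers the time effect of Pdp2 had an adjusted p of 0.0518.

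Pdp1 had 0 to 1.68 CPM over the 36 libraries and a mean log2 difference of 0.07 ± 0.21 (edgeR adjusted p = 0.885). Pdha1 had 55.8 to 77.7 CPM in CRE livers, against 54.9 to 90.4 CPM in GFP livers, and a mean log2 difference of -0.11 ± 0.05 (edgeR adjusted p = 0.127). The substrate thus showed no difference past the threshold with food or with the virus.

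**Figure D3:**
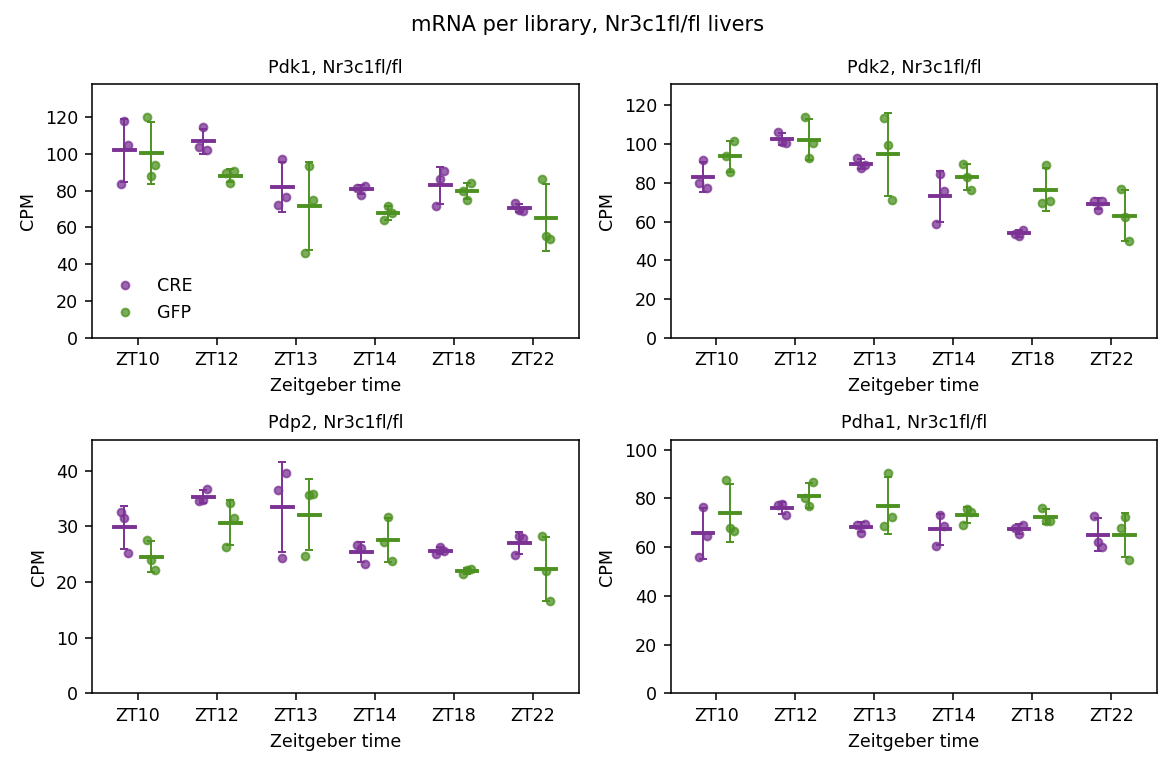
Levels of Pdk1, Pdk2, Pdp2 and Pdha1 (CPM) in Nr3c1fl/fl livers by time of day (ZT, h), with CRE left of GFP. Dots are libraries and lines with bars are group means ± SD (n = 3). Pdk2 lay lower in CRE livers at ZT18, at 52.4 to 55.8 CPM.

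At single times, edgeR and DESeq2 each called 0 of the 7 genes between CRE and GFP livers. In order of time, from ZT10 to ZT22, edgeR called 0.694%, 3.75%, 5.04%, 1.57%, 0.102% and 0.146% of all genes. An unadjusted p under 0.05 was reached by 2 genes at ZT12 (Pdk3 and Pdk4), by 1 at ZT18 (Pdk2) and by 1 at ZT22 (Pdk3). Of all 15712 genes tested, 2203 reached it at ZT12, 1281 at ZT18 and 1706 at ZT22. For the mean of the 6 times 1 of 7 passed, a share close to the 14.6% of all genes, and the median log2 difference was 0.07 over the 7 genes and 0.00 over all genes. Time passed for 3 of 7 genes in CRE livers, where 41.5% of genes passed, and for 4 of 7 in GFP livers (46.9%).

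For the step from ZT12 to ZT13, edgeR called 0 of 7 in CRE livers, where 9.38% of genes passed. At an unadjusted p under 0.05 it listed 2 (Pdk1 and Pdk4), where 3767 of 15712 genes reached it. DESeq2 called 1, Pdk4 (-1.04, DESeq2 adjusted p = 0.0227), where it called 1872 of all genes. In GFP livers edgeR and DESeq2 called 0 of 7, where 2.95% of genes passed by edgeR. An unadjusted p under 0.05 was reached by 0 of 7 and by 2655 of all genes. Between the arms this step differed for 0 genes by edgeR (0.00%), for 634 at an unadjusted p under 0.05 and for 10 by DESeq2, with Pdk4 in none of the adjusted calls. The test of a difference among the 6 times called 0.687% of genes and 0 of 7, and DESeq2 also called 0 of 7. At an unadjusted p under 0.05 it listed 0 of 7, where 1702 of all genes reached it.

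**Figure D4:**
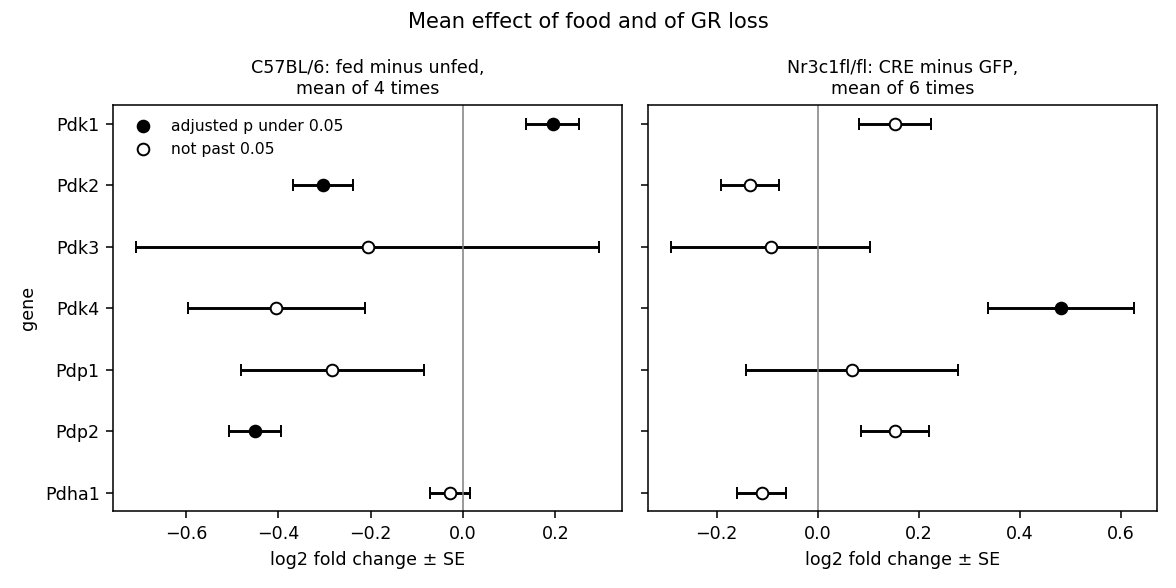
Log2 difference averaged over times for the 7 genes, fed minus unfed over 4 times in C57BL/6 livers and CRE minus GFP over 6 times in Nr3c1fl/fl livers. Bars are ± SE and filled points have an edgeR adjusted p under 0.05. Filled points are Pdk1, Pdk2 and Pdp2 for food and Pdk4 for the virus.

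The genes around these regulators were read from lists of the same pathway. Of the 8 tested other subunits and assembly factors of the pyruvate dehydrogenase complex, 2 rose and 1 fell with food over the 4 times, with a median log2 difference of 0.05, where 17.5% of all genes were higher and 17.9% lower in fed livers (35.4% in all), a share close to that of the list. Pdpr, the regulatory subunit that restrains the phosphatase, fell by 0.53 ± 0.06 (edgeR adjusted p = 2.49e-07), alongside Pdp2. Pdhb, the E1 beta subunit, rose by 0.29 ± 0.04 (2.45e-06), and Lipt1, which transfers the lipoyl cofactor, rose by 0.23 ± 0.08 (0.0267). Between CRE and GFP livers 1 of 8 passed, where 14.6% of all genes did, and the median was 0.00. It was Pdhb, lower in CRE livers by 0.14 ± 0.04 (0.0195).

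Of 10 genes that make, carry or use pyruvate and acetyl-CoA, 2 rose and 3 fell with food, where 17.5% of all genes were higher and 17.9% lower, with a median log2 difference of -0.14. Pklr, liver pyruvate kinase, rose by 0.99 ± 0.08 (edgeR adjusted p = 1.7e-09), and Cs, citrate synthase, rose by 0.41 ± 0.04 (4.28e-08). Pcx, pyruvate carboxylase, fell by 0.21 ± 0.06 (0.00967), and Gpt2, which links pyruvate to alanine, fell by 0.31 ± 0.07 (0.0018). With the virus 1 rose and 3 fell, where 14.6% of all genes passed in either direction, with a median of -0.10. Mpc1 of the mitochondrial pyruvate carrier was higher in CRE livers by 0.21 ± 0.04 (0.000617), and Pklr, Gpt2 and Ldha were lower, with log2 differences of -0.37 ± 0.11 (0.022), -0.21 ± 0.06 (0.0206) and -0.14 ± 0.04 (0.0247).

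The sister complex that oxidises branched-chain keto acids has its own kinase and phosphatase. Of its 5 genes, 2 fell with food and 0 rose, where 35.4% of all genes passed, with a median of -0.08: the phosphatase Ppm1k fell by 0.80 ± 0.06 (edgeR adjusted p = 6.74e-11) and the subunit Bckdha by 0.26 ± 0.05 (0.000221). Ppm1k was the only one of the 5 that passed with the virus, higher in CRE livers by 0.33 ± 0.07 (0.00157), where 14.6% of all genes passed and the median of the 5 was 0.07.

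Of 12 regulators that act on Pdk4 or the family, 1 rose and 6 fell with food, where 17.5% of all genes were higher and 17.9% lower, with a median of -0.20. Ppara, the fatty acid receptor, fell by 0.69 ± 0.06 (edgeR adjusted p = 1.48e-09), its relative Ppard rose by 0.90 ± 0.08 (2.56e-09), the coactivator Ppargc1b fell by 0.74 ± 0.07 (7.54e-09) and Insr, the insulin receptor, fell by 0.38 ± 0.04 (2.47e-07). With the virus 1 rose and 3 fell, Nr3c1 among them, where 14.6% of all genes passed, with a median of -0.04. Foxo1 was lower in CRE livers by 0.48 ± 0.04 (3.36e-09), Ppargc1a was lower by 0.59 ± 0.16 (0.00948), and Ppara was higher by 0.23 ± 0.06 (0.00499). Without the libraries in which the unmatched row NR_046233 took over 20% of the counts, Pdhb, Pklr, Gpt2, Ldha and Ppargc1a no longer passed between CRE and GFP livers (edgeR adjusted p 0.0529 to 0.187), at log2 differences of -0.16, -0.40, -0.17, -0.15 and -0.53.

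Some genes followed the course of a member over the groups of both sets of mice. Likeness was the mean of the Pearson correlations of log2 group means over the 9 and the 12 groups, among 9580 genes with at least 5 CPM, and it is a description, since all genes of a library share its depth. Pdk4 was most like Denn2b and Nicn1, both at 0.957, and Ypel2 at 0.952. Pdk2 was most like Gm16861 at 0.921, 1600014C10Rik at 0.918 and Klhl21 at 0.916. Pdp2 was most like Amotl2 at 0.91, Adck2 at 0.883 and Ndrg2 at 0.882.

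For Pdk1 the nearest were Dnase2b at 0.924, Uox, urate oxidase, at 0.906 and Dclre1a at 0.856, and for Pdha1 Fh1, the fumarase of the citric acid cycle, at 0.888 and Sra1 at 0.887. The low-count genes Pdk3 and Pdp1 had no gene above 0.704 and 0.766. Within the family, Pdk2 and Pdp2 had r = 0.761 over 9 and 0.662 over 12 groups, and Pdk2 and Pdk4 had -0.546 and -0.737. These pairs were picked from all pairs of members. Pdk2 with Pdha1 had 0.193 and 0.736, and Pdk4 with Pdp1 had 0.73 and 0.341. The fed to unfed differences of Pdk2 and Pdk4 had the same sign at ZT13 and ZT14, though none passed in the fit of all groups.

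Where GR bound near these genes was read from 3 deposited lists of GR peaks. Chromatin came from unfed livers at ZT10, and the labels give 1 library each of GR and of input from C57BL/6 mice and 1 library each of GR from CRE and GFP livers of Nr3c1fl/fl mice. One list is named for agreement between replicates and belongs to the C57BL/6 GR library, one for input as the control and one for the CRE liver as the control. Which libraries entered the first, and which were set against the control in the other 2, is not given in the labels. The list of 5772 peaks named as concordant between replicates had a peak within 25 kb of 1 of the 7 genes, Pdp2, where 29.5% of 14638 genes had one. It lies inside Pdp2 at chr8:104598642-104598850, 7.3 kb from the annotated start. The nearest such peak to Pdk4 lies at chr6:5443288-5443496, 39.9 kb outside the gene. Whether these places are exonic or intronic was not analysed here, since the gene table used gives only gene intervals.

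The longer lists placed peaks near more of the genes. Peaks called against input (23683) lay within 25 kb of 4 of 7 genes, where 63.4% of genes had one, with 6 near Pdk4, of which 1 lies inside it at chr6:5485082-5485276, 2 near Pdk2, 2 near Pdp2 and 1 near Pdha1. Peaks called against chromatin of CRE livers (18543) lay near 5 of 7, where 72.0% of genes had one. Of these, 1 lies inside Pdk4 at chr6:5485294-5485502 and 1 inside Pdk1 at chr2:71873822-71874030. Pdk3 and Pdp1 had no peak within 25 kb in any of the 3 lists.

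The Pdk2 start carries one of the peaks called against CRE chromatin, at chr11:95041354-95041562. That list also has peaks close to the starts of Pdha1, centred 0.4 kb upstream and 0.6 kb downstream, and of Pdk1, centred 0.7 kb downstream. The peak at the Pdk2 start covers 191 of the 250 printed bases of Pdk2, and the CACGTG and all 3 CCAAT letters of that window lie inside it. The other lists hold no peak at this place. Peaks called against input lie inside Pdk2, with centres 1.1 and 2.0 kb from the start, and the nearest replicate-concordant peak lies 323.8 kb from the gene. The letters AGAACA, a glucocorticoid response element hexamer searched on both strands, occur in none of the windows printed above, and its inverted repeat (AGAACA and TGTTCT, 3 bases apart) occurs at 0.00913% of the 32851 promoters. Among the 8 RefSeq windows of 6 members (there are 2 each for Pdk1 and Pdk2), AGAACA occurs in the second window of Pdk1, at -153 and -138 from the start, and 19.0% of all promoters hold it. Neither TGTTTAC, the letters of FOXO sites, nor AGGTCA, the unit repeated in PPAR sites, occurs in any of these windows on either strand. Of all promoters, 3.65% hold TGTTTAC and 16.3% hold AGGTCA.

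**Figure D5:**
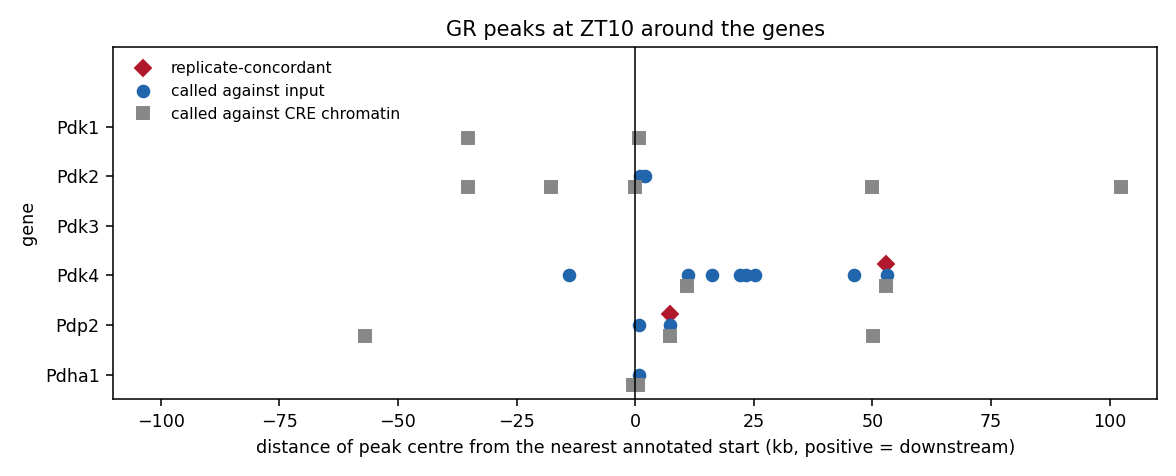
Distance (kb) of GR peak centres from the nearest annotated start of 6 members, in rows for the 3 deposited peak lists at ZT10. Points are peaks within 100 kb of the gene. Pdk2 has a peak at its start only in the list called against CRE chromatin, and Pdp2 has a peak of the replicate-concordant list 7.3 kb from its start. The list called against CRE chromatin also holds peaks close to the starts of Pdk1 and Pdha1.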

How the data were processed

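Liver RNA was sequenced from 27 C57BL/6 and 36 Nr3c1fl/fl libraries, in 9 and 12 groups of 3. The authors deposited raw read counts per RefSeq transcript for each set of mice and 3 lists of GR peaks. STAR, HOMER and DESeq2 and the build mm10 are named, without roles or versions, per the submitters' processing notes. Whether counting used strand, and how peaks were called or pooled, is not given in the sources used.

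Of 40458 rows, 40219 had their RefSeq identifier in a GRCm38.p6 gene table, and the rest entered neither library sizes nor tests. They held 0.308% to 2.24% of the counts in C57BL/6 and 2.43% to 28.6% in Nr3c1fl/fl libraries. In Nr3c1fl/fl libraries most of it was in the row NR_046233, which held 0.096% to 2.05% of the counts in C57BL/6 libraries. Of counts from 1 to 10 in the mouse tables, 75.7% to 85.1% per library are even, so fits were repeated on halved counts. No library repeated another: over 27 and 36 pairs of replicates the lowest chi-square per degree of freedom was 3.43 and 12.22.

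The test was edgeR 4.0.16 in R 4.3.3 (TMM, filterByExpr, quasi-likelihood F-test, 1 fit per set of mice), with Benjamini-Hochberg adjusted p under 0.05 over all genes tested as the threshold. The SE is the size of the log2 change over the square root of F. Effects averaged over times are contrasts of that fit. DESeq2 1.42.0 was an alternative, as were other scalings, filters, every transcript row, only the groups compared, and each library left out. A further fit of the Nr3c1fl/fl livers took the log2 share of NR_046233 as a covariate. The members, gene lists, markers and tests were chosen with earlier results of these data known. All 7 members were named, with the 4 genes of each list of lowest p and the 3 most like genes, of which 1 is not reported here. Peak starts were read as counting from 0 and are printed 1 higher. A peak was near a gene within 25 kb of its interval. Sequences are those of RefSeq for GRCm38.p6, and Pdp1 has no entry in that table. The rat table was not used here.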

Additional observations from a re-analysis of the deposited data

Results flagged for a closer look

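The food response of Pdk1 and of Pdk4 differed among the 4 times, by the edgeR test of equal fed to unfed differences over all genes, which 8.10% of genes passed. The adjusted p was 0.000859 for Pdk1, with log2 differences of -0.34 ± 0.12 (ZT13), 0.01 ± 0.12 (ZT14), 0.45 ± 0.12 (ZT18) and 0.66 ± 0.12 (ZT22) (± SE, n = 3 libraries per group). For Pdk4 it was 0.0496, with log2 differences of -1.26 ± 0.43, -1.05 ± 0.40, 0.04 ± 0.35 and 0.65 ± 0.34 at the same times. The Pdk4 call was lost in 17 of 24 fits with 1 library left out (0.0073 to 0.108), and under RLE scaling, halved counts, every transcript row and only the groups compared (0.052, 0.0618, 0.0518 and 0.0681).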

How the results depend on the processing

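Of 250 recomputed counts under other settings, 237 stayed within 1.5 times the value given, as did 482 of 507 with 1 library left out. With only the groups compared in the fit, 2 of the 7 genes passed between fed and unfed livers at ZT14 (Pdk2 added, adjusted p 0.0313), 2 passed for time among GFP livers (Pdk1 at 0.102 and Pdp2 at 0.0542 lost), 1 for the varying food response and 1, Pdk4, for ZT13 against ZT12 in CRE livers (0.0417). DESeq2 also called 1 for the last. The varying food response held for 1 gene, Pdk1, under RLE scaling, halved counts and every transcript row, where Pdk4 had 0.052, 0.0618 and 0.0518, against 0.0681 with only the groups compared. Without the libraries over 20% NR_046233, which leaves 1 GFP library at ZT12, Pdk4 turned to 0.15 for ZT13 against ZT12 in GFP livers. For the mean effect of the virus that setting leaves 5 times, an average chosen after seeing the data, and 0 genes of the pyruvate dehydrogenase list and 1 of the pyruvate list passed, while Pdp1 turned to -9.7e-05. The cause was not tested. Replicate-concordant GR peaks lay within 100 kb of 2 genes. Within 25 kb, peaks against input lay near 4 and those against CRE chromatin near 5. With 1 library left out, the count of genes ran from 1 to 2 at ZT22, from 1 to 2 for the varying food response, from 0 to 3 for the mean effect of the virus and from 0 to 1 for ZT13 against ZT12 in CRE livers, and list counts with the virus from 1 to 2 for the pyruvate dehydrogenase and the branched-chain list. For that mean, 0 passed without CRE ZT10 replicate 2, while Pdk2 passed without GFP ZT13 replicate 3 (0.0314), Pdp2 without CRE ZT13 replicate 2 (0.0441) and Pdk1 and Pdp2 without GFP ZT22 replicate 1 (0.0485 and 0.046). Log2 differences of fed against unfed livers ran from -0.07 to 0.11 for Pdk1 at ZT14, from -0.27 to 0.71 for Pdk4 at ZT18, from -0.25 to 0.04 for Pdk2 at ZT22 and from -0.55 to 0.16 for the mean of Pdk3, and the mean of Pdk4 passed without unfed ZT18 replicate 1 (0.0452). Those of CRE against GFP livers ran for Pdk4 from -0.35 to 0.45 at ZT10, from -0.04 to 0.43 at ZT13 and from -0.028 to 0.46 at ZT18, and for the mean of Pdk3 from -0.16 to 0.024. For ZT13 against ZT12, Pdk4 ran from -0.43 to 0.11 in GFP livers and passed in CRE livers without CRE ZT12 replicate 3 (0.0404). With the replicate block, 116 of 117 results were the same, single genes by sign and side of the threshold and counts within 1.5 times. Time among CRE livers was lost for Pdk1 (edgeR adjusted p = 0.0528), where the count of genes went from 3 to 2. For food, the count of the pyruvate list went from 5 to 6. Replicate numbers did not pair the libraries: libraries of the same number correlated at a median of 0.016 in C57BL/6 and 0.017 in Nr3c1fl/fl livers in their deviations from group means. Without scaling factors, 24 of 147 group means of the 7 genes moved by over 1 SD, and under RLE scaling 0 did. Depth limits Pdk3 and Pdp1, whose lowest libraries held 0 counts.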
